A study of Homo sapiens with 4 samples.

Results

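The regions described here are the stronger binding sites of the transcription factor BACH1 in 16HBE14o- cells that had no counterpart in Calu3 cells. They numbered 536 of the 3393 regions of the 16HBE14o- list. They were selected by the peak signal of the 16HBE14o- list and by their position relative to the Calu3 list: overlapping rows were merged, the 1696 regions with the highest signal were taken, and those were kept that overlapped no Calu3 peak by 1 bp or more and whose summit lay over 500 bp from every Calu3 summit. The remaining 1160 of the 1696 had a Calu3 counterpart. The share without one was thus 31.6%, which the selection itself fixed and which serves below as the background for each chromosome.

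16HBE14o- is an immortalised human bronchial epithelial cell line, and Calu3 is a human lung adenocarcinoma cell line. Both were grown in DMEM with 10% FBS, without any treatment named in the labels, and chromatin from each was precipitated with the same rabbit antibody against BACH1 and sequenced (ChIP-seq). Each line contributed 2 replicates, from which the authors made 1 list of peaks that were reproducible by the irreproducible discovery rate (IDR), and nothing in the labels says whether the replicates were separate cultures. The Calu3 list held 10246 peaks. Replicate values were not analysed here, so no difference between the lines has a replicate check, no test over samples was possible, and the intervals below are exact binomial 95% intervals that cover counting error only. Read depth is unknown. A region without a counterpart is one that was not called in Calu3 at whatever depth was sequenced, which does not make it unbound there. The lists of the lines also differ in their columns and region widths, and no label names the peak caller. A difference in peak calling cannot be told apart here from a difference between the lines. Regions are given by position on hg19 and were not assigned to genes.

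BACH1 belongs to the CNC family of basic leucine zipper factors. It pairs with small MAF proteins and binds Maf recognition elements, whose core resembles the AP-1 site, and at many of these elements it competes with the activator NRF2 (NFE2L2). Haem binding to BACH1 releases it from DNA and leads to its export and degradation, so that genes for haem breakdown, iron storage and antioxidant defence are held down by BACH1 until haem or oxidative stress relieves them.

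Most of the 536 regions came from the weaker end of the 1696. Their median peak signal, on the unstated scale of the 16HBE14o- list, was 35.3 (interquartile range 32.2 to 41.9, range 30.2 to 153), against 47.2 (interquartile range 36.9 to 71.7, range 30.2 to 366) for the 1160 regions with a Calu3 counterpart. A signal of 60 or more was reached by 33 of the 536 and by 436 of all 1696, and a signal of 100 or more by 4 and by 132. In steps of 424 ranks, from strong to weak, regions without a counterpart made up 7.78% (33 regions), 23.3% (99 regions), 41.0% (174 regions) and 54.2% (230 regions). Signal was among the values that chose the regions, so these figures describe the set and are not a test.

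**Figure D1:**
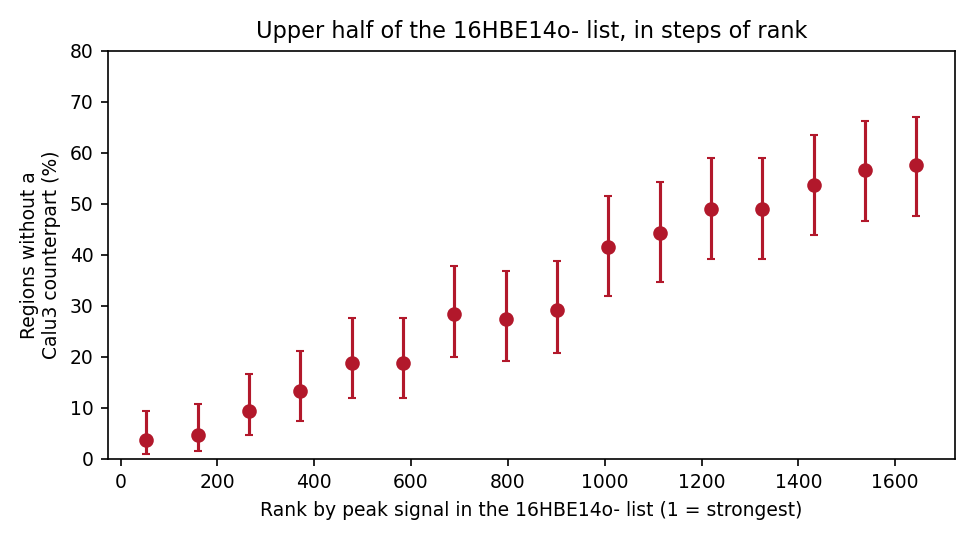
Share of 16HBE14o- regions without a Calu3 counterpart (vertical axis, percent) in 16 consecutive steps of 106 regions, by rank of peak signal (horizontal axis, 1 is the strongest). Points are shares and bars are exact binomial 95% intervals; the share was 3.77% in the first step and 57.5% in the last.

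The selection had 2 edges. By signal, the last region taken was chr7:102036700-102036939 with a signal of 30.16, rank 1696, and the first without a counterpart left below it was chr6:159151731-159151970 with a signal of 30.15, rank 1698. By distance, the regions nearest to a Calu3 summit were chr12:52674862-52675101 (514 bp), chr14:93252571-93252810 (529 bp) and chr1:109740694-109740933 (544 bp). A further 6 regions among the 1696 overlapped no Calu3 peak but had a summit within 500 bp of one, at 336 to 474 bp, and were counted as having a counterpart. The nearest to the limit on that side was chr7:142654323-142654562 at 474 bp.

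The strongest region without a counterpart was chr20:24015691-24015786. It had a signal of 153 and ranked 42 in the 16HBE14o- list. Its neighbourhood was sparse in both lines: the nearest Calu3 summit was 600 kb away and the nearest other 16HBE14o- region also 600 kb. Counting these nearest ones, 2 Calu3 sites and 2 other 16HBE14o- regions lay within 1 Mb. At 96 bp it was the single region narrower than 240 bp among the 536.

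Next came chr20:36825015-36825254, with a signal of 135 and rank 63, in a crowded stretch. Within 1 Mb it had 18 other 16HBE14o- regions and 22 Calu3 sites, of which the nearest was 23.2 kb away with a fold enrichment of 3.02. The third, chr19:47562060-47562299, had a signal of 122 (rank 78), and its nearest Calu3 summit was 51.1 kb away. The fourth, chr20:50720085-50720324, had a signal of 120 (rank 80), and its nearest Calu3 summit was 87.8 kb away. No other region of the set reached a signal of 100.

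The fifth, chr20:49292612-49292851, with a signal of 95.7 (rank 148), had the most other 16HBE14o- regions within 1 Mb of the leading 20, 51, beside 39 Calu3 sites. A 16HBE14o- region that did have a Calu3 counterpart lay 2.26 kb away. The sixth, chr20:60641011-60641250, with a signal of 87.5, had 27 other 16HBE14o- regions and 45 Calu3 sites within 1 Mb. The seventh, chr15:36720515-36720754, with a signal of 87.1, was again isolated, with 2 sites of each list within 1 Mb and the nearest Calu3 summit 554 kb away. The leading regions thus included both crowded and sparse surroundings.

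The eighth and ninth were on chromosome 11. At chr11:94482549-94482788 the signal was 86.4, and the nearest Calu3 summit was 335 kb away while another 16HBE14o- region lay at 12.1 kb. At chr11:72983107-72983346 the signal was 85.6, with the nearest Calu3 summit at 465 kb and another 16HBE14o- region at 35.1 kb. The tenth, chr14:62431807-62432046, had a signal of 81.8 and its nearest Calu3 summit 292 kb away. In these 3 cases sites of the same line lay closer than any Calu3 site.

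Of the 20 strongest regions, 7 were on chromosome 20, and the 20 were spread over 12 chromosomes. Positions 11 to 20 had signals from 78.8 down to 70.5. They included chr20:56678043-56678282 (signal 78.8), chr22:21161718-21161957 (signal 78.5), chr6:113673436-113673675 (signal 77.1) and chr2:218416293-218416532 (signal 75.3). The region chr14:93252571-93252810 (signal 76.8) was the exception in closeness: its summit lay 529 bp from a Calu3 summit whose peak, with a fold enrichment of 5.82, was itself matched to a neighbouring 16HBE14o- region 543 bp away. The other regions were chr1:145114533-145114772 (signal 75.1), chr21:45011656-45011895 (signal 74.7), chr20:54796299-54796538 (signal 74.1), chr10:127892934-127893173 (signal 71.9) and chr17:7932547-7932786 (signal 70.5). Across the 20, the nearest Calu3 summit was at a median of 94.7 kb, over 100 kb away for 10 and under 10 kb away for 2.

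The other columns of the 16HBE14o- list bear on how reproducible the regions were. The list's browser score ran from 540 to 1000. The IDR program's usual scaling gives 540 for an IDR of 0.05 and its cap of 1000 for an IDR of 0.0039 or less, although the sources used here do not say that this scaling was used. A score of 1000 was held by 429 of the 536 regions without a counterpart (80.04%, 95% interval 76.4 to 83.3), against 1080 of the 1160 with one (93.1%, 95% interval 91.5 to 94.5). A score of 1000 was less common at weaker ranks, and at like rank the sets were closer. In ranks 849 to 1272 the share at 1000 was 90.8% (95% interval 85.5 to 94.7) without a counterpart and 94.8% (95% interval 91.3 to 97.2) with one, and in ranks 1273 to 1696 it was 60.4% (95% interval 53.8 to 66.8) and 67.0% (95% interval 59.9 to 73.6). In ranks 1 to 424 all 33 and all 391 regions stood at 1000.

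The lowest score in the set, 552, belonged to chr5:112043097-112043336, which had a signal of 35.0 and no other 16HBE14o- region within 1 Mb. Of the 536 regions, 533 were exactly 240 bp wide, as were 1102 of the 1160. Regions narrower than 240 bp numbered 1 among the 536 and 53 among the 1160.

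Chromosomes 11, 14 and 20 held a larger part of the regions without a counterpart than of those with one. Chromosome 20 held 62 of the regions without a counterpart (11.6%, 95% interval 8.98 to 14.6), against 76 of those with one (6.55%). Chromosome 14 held 49 (9.14%, 95% interval 6.84 to 11.9), against 55 (4.74%, 95% interval 3.59 to 6.13). Chromosome 11 held 48 (8.96%, 95% interval 6.68 to 11.7), against 52 (4.48%, 95% interval 3.37 to 5.84). The 3 chromosomes together held 159 of the 536 (29.7%, 95% interval 25.8 to 33.7) and 183 of the 1160 (15.8%, 95% interval 13.7 to 18.0). This trio was put together after the shares were seen. Of the whole 16HBE14o- list, chromosome 20 held 10.3%, which lay inside its interval for the 536. Chromosomes 14 and 11 held 6.34% and 6.40% of that list, just below their intervals for the 536.

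Ranked by the ratio of the 2 shares, the leading chromosomes were 21, 11 and 14. Chromosome 21 was small, with 12 regions without a counterpart and 11 with one. At the other end were chromosomes 12, 10 and 22, with 15 against 58, 11 against 42 and 8 against 28 regions. Read as a share of the stronger regions of each chromosome, those without a counterpart made up 52.2% on chromosome 21 (95% interval 30.6 to 73.2), 48.0% on chromosome 11 (95% interval 37.9 to 58.2), 47.1% on chromosome 14 (95% interval 37.2 to 57.2) and 44.9% on chromosome 20 (95% interval 36.5 to 53.6), beside the 31.6% over all chromosomes. The interval of chromosome 21 included 31.6%, and those of chromosomes 11, 14 and 20 did not. This is not a test: the intervals treat neighbouring regions as independent and make no allowance for picking among 23 chromosomes. The 31.6% also includes the chromosomes set beside it. The share was 20.5% on chromosome 12 (95% interval 11.98 to 31.62), 20.8% on chromosome 10 (95% interval 10.8 to 34.1) and 22.2% on chromosome 22 (95% interval 10.1 to 39.2). These intervals all included 31.6%, that of chromosome 12 only just. Outside chromosomes 11, 14 and 20 it was 27.8% (377 of 1354 regions).

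**Figure D2:**
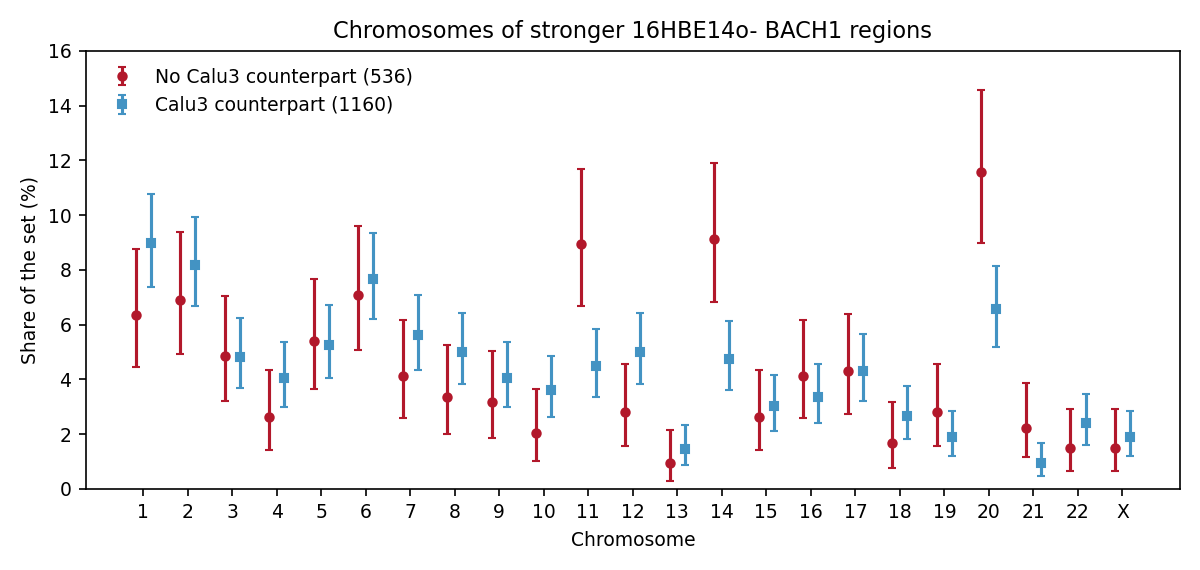
Share of each set of stronger 16HBE14o- regions on each chromosome (vertical axis, percent; horizontal axis, chromosome), for the 536 without a Calu3 counterpart (red circles) and the 1160 with one (blue squares). Bars are exact binomial 95% intervals; on chromosomes 11, 14 and 20 the circles stand at 8.96%, 9.14% and 11.6% and the squares at 4.48%, 4.74% and 6.55%.

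The difference between these chromosomes was not limited to one level of signal. In ranks 1 to 424, chromosomes 11, 14 and 20 held 16 of the 33 regions without a counterpart (48.5%, 95% interval 30.8 to 66.5) and 69 of the 391 with one (17.6%, 95% interval 13.998 to 21.8). In ranks 1273 to 1696 they held 60 of 230 (26.1%, 95% interval 20.5 to 32.3) and 25 of 194 (12.9%, 95% interval 8.52 to 18.4). In the weaker remainder of the list, below rank 1696, regions without a counterpart made up 83.8% on chromosome 20, 85.6% on chromosome 14 and 82.1% on chromosome 11, beside 74.0% over all chromosomes. The chromosome order was not the same there: chromosome 22, among the lowest in the stronger regions, stood at 84.4% (27 of 32), and chromosome 21 also at 84.4%. The same 3 chromosomes held many 16HBE14o- regions of any kind: chromosome 20 held 10.3% of that list and 4.05% of the Calu3 list, chromosome 14 held 6.34% and 2.59%, and chromosome 11 held 6.40% and 3.83%. The part that this density plays in the share without a counterpart was not tested. No test was made of these differences, which are between regions of 1 pooled list and not between samples.

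Within the chromosomes, the regions were widely spread. When each chromosome was cut into stretches of 10 Mb, 185 of the 290 stretches with any 16HBE14o- region held at least 1 of them, and the 26 stretches with 5 or more held 229 of the 536. The stretch from 60 to 70 Mb of chromosome 11 held most, with 20 regions without a counterpart and 25 with one, in 104 regions of 16HBE14o- and 74 of Calu3. On chromosome 20, the stretches from 30 to 40, 40 to 50 and 50 to 60 Mb held 17, 16 and 15 regions without a counterpart, beside 17, 27 and 14 with one. In the stretch from 70 to 80 Mb of chromosome 11, the stronger regions were nearly all without a counterpart, 12 against 2 with one, although Calu3 had 25 sites there. On chromosome 3 the stretch from 80 to 90 Mb held 7 against 0 with a counterpart. It held 55 regions of 16HBE14o- and 12 of Calu3. On chromosome 14 the stretch from 90 to 100 Mb held 12 against 6, with 32 Calu3 sites. On chromosome 21 the stretch from 40 to 50 Mb held 10 of that chromosome's 12, against 5 with a counterpart. These stretches were named after their counts were seen.

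Regions without a counterpart lay near one another in a minority of cases. With neighbouring summits at most 100 kb apart, 127 of the 536 (23.7%, 95% interval 20.2 to 27.5) fell into 57 groups: 47 pairs, 7 groups of 3 and 3 groups of 4. Of the 1160 regions with a counterpart, 303 (26.1%, 95% interval 23.6 to 28.8) had another of their own set within 100 kb. That set is larger and offers more neighbours, so these shares do not compare the grouping of the sets. One of the 536 lay within 100 kb of 162 of the 1160 (13.97%, 95% interval 12.02 to 16.09). By this measure the 536 lay more often near one another than the 1160 lay near them, a difference that was not tested. Within 1 Mb, 61.4% of the 536 had another of their set and 41.6% of the 1160 had one of the 536. Of the 1256 weaker 16HBE14o- regions without a counterpart, 61.5% had one, so this nearness was not particular to the stronger regions. No allowance was made for the weight of chromosomes 11, 14 and 20. The share of the 536 in groups was 15.5% when neighbours were joined within 50 kb and 50% within 500 kb. Among the 132 without a counterpart in the strongest 25% of the list, 7.58% were in groups. Of the 57 groups, 40 had no Calu3 site between their outermost summits, and 11 had a stronger 16HBE14o- region with a counterpart between them. No like count was made for other spans of the same lengths, so these counts have no background.

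The 3 groups of 4 were on chromosomes 20 and 11. The group at chr20:60641011-60813484 had signals of 87.5, 35.3, 30.2 and 30.7 along the chromosome, and 4 Calu3 sites lay between its summits without meeting any of them. The group at chr11:65657981-65769814 had signals of 35.4, 45.9, 30.2 and 33.9. It was interspersed with 3 stronger 16HBE14o- regions that had Calu3 counterparts, 3 weaker 16HBE14o- regions and 5 Calu3 sites. The group at chr11:65189701-65266592 had signals of 31.9, 38.9, 34.2 and 37.3, with 1 stronger region with a counterpart and 2 Calu3 sites between.

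Other groups had no Calu3 site among them. At chr11:72906362-72983346, 3 regions with signals of 34.1, 33.9 and 85.6 were 388 to 465 kb from the nearest Calu3 summit. At chr11:102049060-102218020, 3 regions with signals of 63.4, 48.9 and 39.0 were 217 to 386 kb from one, and the 3 other 16HBE14o- regions between them were weaker and also had no Calu3 counterpart. At chr14:96550120-96562513, 3 regions with signals of 36.3, 61.8 and 31.7 lay within 12.2 kb of each other, 177 to 189 kb from the nearest Calu3 summit. At chr20:39259869-39293107, 3 regions with signals of 31.8, 31.2 and 39.96 lay within 33.0 kb.

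The other groups of 3 were chr20:36793585-36825254, with signals of 32.6, 35.2 and 135 and 2 Calu3 sites between, chr20:48760935-48854229, with signals of 34.4, 32.6 and 46.8 and 2 Calu3 sites between, and chr14:77419830-77554944, with signals of 30.3, 32.1 and 31.8 and 2 Calu3 sites between. All 10 groups of 3 or 4 were on chromosomes 11, 14 and 20.

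**Figure D3:**
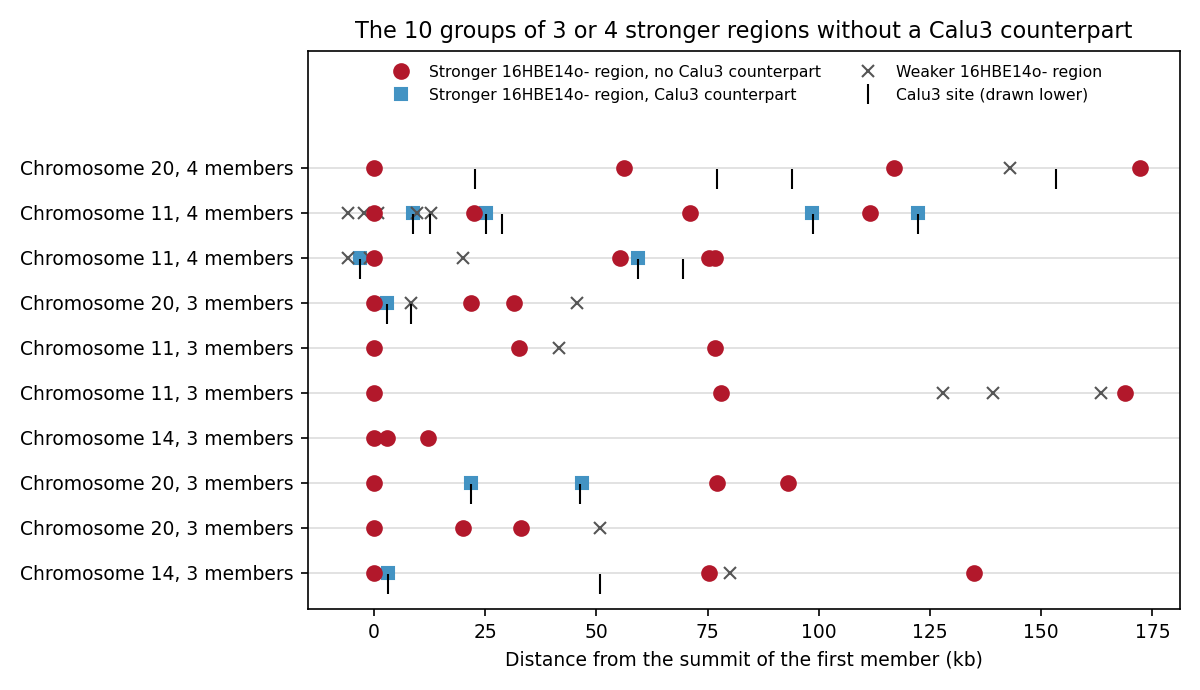
The 10 groups of 3 or 4 stronger 16HBE14o- regions without a Calu3 counterpart, 1 per row, drawn by distance from the summit of the first region (horizontal axis, kb, with 20 kb shown to either side). Red circles are the regions without a counterpart, blue squares stronger regions with one, crosses weaker 16HBE14o- regions and black ticks Calu3 sites; 4 of the 10 rows show no Calu3 site.

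The regions without a counterpart lay somewhat farther from other Calu3 sites than those with one. Their median distance to the nearest Calu3 summit was 66.1 kb (95% interval of the median 55.1 to 76.9). For the stronger regions with a counterpart, leaving out Calu3 summits within 500 bp, the median was 46.6 kb (95% interval 39.5 to 52.9). A Calu3 summit lay within 10 kb of 85 of the 536 (15.9%, 95% interval 12.9 to 19.2), against 260 of the 1160 (22.4%, 95% interval 20.04 to 24.9), and within 100 kb of 329 (61.4%, 95% interval 57.1 to 65.5), against 800 (69.0%, 95% interval 66.2 to 71.6). The weaker 16HBE14o- regions without a counterpart, 1256 in number, had a median of 58.0 kb (95% interval 53.5 to 62.9). Of these, 15.5% had a Calu3 summit within 10 kb and 66.6% within 100 kb, so the longer distance was not particular to the stronger regions. The selection set the 500 bp limit, and it also acted directly beyond that limit in 3 regions, which overlapped a Calu3 peak whose summit was farther away and were counted as having a counterpart. Both sets were chosen by the same Calu3 positions from which the distances were measured. Where Calu3 sites lie in groups, the selection itself can lengthen the distances of regions without a counterpart, so the figures describe the sets and are not a test. Outside chromosomes 11, 14 and 20 the medians were 81.1 kb (95% interval 70.3 to 97.6) without a counterpart and 48.3 kb (95% interval 40.8 to 55.4) with one.

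**Figure D4:**
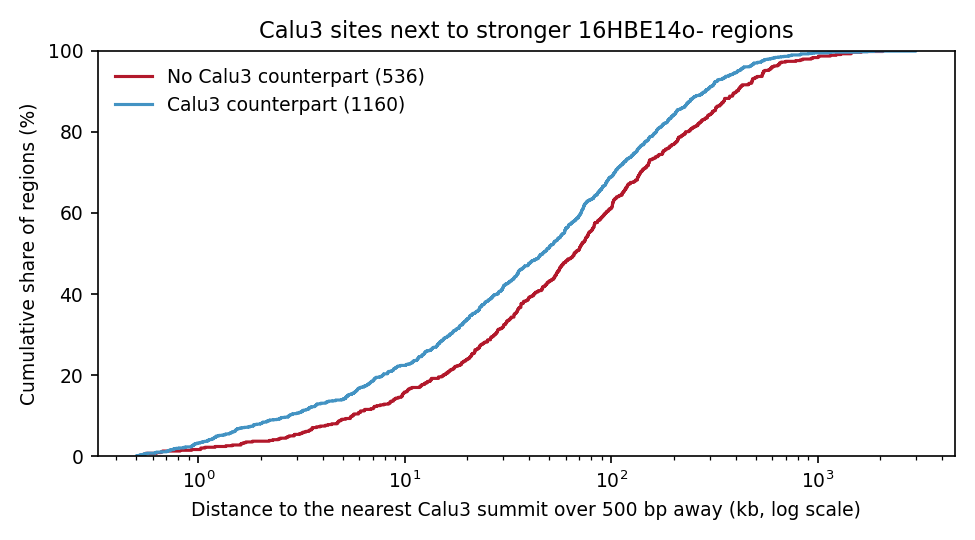
Cumulative share of stronger 16HBE14o- regions (vertical axis, percent) by distance to the nearest Calu3 summit over 500 bp away (horizontal axis, kb, log scale), for the 536 without a Calu3 counterpart (red) and the 1160 with one (blue). The red curve lies to the right, with a median of 66.1 kb against 46.6 kb.

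The Calu3 sites nearest to these regions had fold enrichments close to those of their whole list. They were 456 distinct peaks with a median fold enrichment of 4.07 (interquartile range 3.27 to 6.18), counted once for each of the 536 regions, against 4.13 (interquartile range 3.17 to 6.23) over all Calu3 peaks. Of the 536 regions, 158 (29.5%, 95% interval 25.6 to 33.5) had as their nearest Calu3 site one that overlapped another 16HBE14o- region, whereas 15.3% of all Calu3 peaks did. Among the 85 regions with a Calu3 summit within 10 kb, this was the case for 34 (95% interval of the share 29.5% to 51.2%). The part that the local density of 16HBE14o- regions plays in these shares was not tested. Of the nearest sites, 23.7% had a deposited q of 0.05 or more, against 26.7% of all Calu3 peaks.

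The 5 regions farthest from Calu3 binding had moderate signals. They were chrX:7050408-7050647 (signal 34.0, nearest Calu3 summit 2067 kb away), chrX:135426640-135426879 (signal 45.2, 1622 kb away), the pair chr11:97444820-97445059 (signal 43.3, 1448 kb away) and chr11:97451262-97451501 (signal 31.5, 1455 kb away), and chr18:5296121-5296360 (signal 43.2, 1292 kb away). The pair lay 6.44 kb apart. The region chrX:135426640-135426879 had neither a Calu3 site nor another 16HBE14o- region within 1 Mb.

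Around the regions without a counterpart, other 16HBE14o- regions were more numerous, and Calu3 sites slightly fewer, than around those with one. Within 1 Mb the median number of other 16HBE14o- regions was 5 (95% interval of the median 5 to 6, mean 8.93) without a counterpart and 4 (95% interval 3 to 4, mean 6.09) with one. The median number of Calu3 sites over 500 bp away was 8 (95% interval 7 to 8, mean 10.2) and 9 (95% interval 9 to 10, mean 11.04). Calu3 positions also chose the sets, so the Calu3 counts are description only. Other 16HBE14o- regions outnumbered Calu3 sites around 148 of the 536 (27.6%, 95% interval 23.9 to 31.6) and around 180 of the 1160 (15.5%, 95% interval 13.5 to 17.7). Outside chromosomes 11, 14 and 20 the shares were lower in both sets, 17.2% (95% interval 13.6 to 21.4) and 9.62% (95% interval 7.84 to 11.6). The median numbers of other 16HBE14o- regions there were 4 (95% interval 3 to 4) and 3 (95% interval 3 to 3). For the 1256 weaker 16HBE14o- regions without a counterpart, the share was 29.3% (95% interval 26.8 to 31.9), near that of the stronger ones. Their medians within 1 Mb were 6 other 16HBE14o- regions (mean 10.3) and 9 Calu3 sites (mean 11.2). The higher number of other 16HBE14o- regions was thus not particular to the stronger ones.

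**Figure D5:**
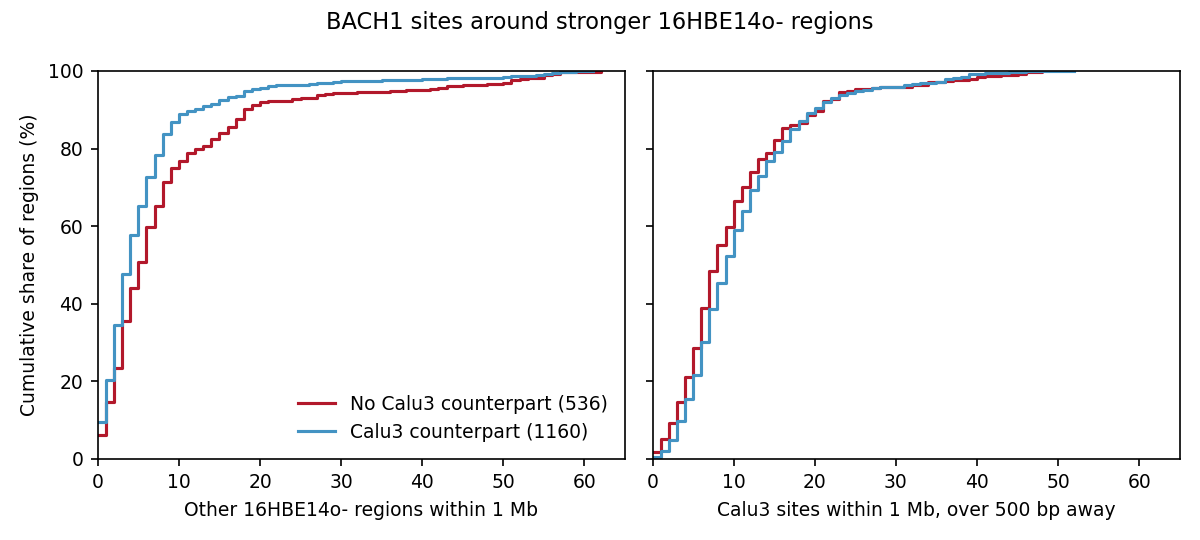
Cumulative share of stronger 16HBE14o- regions (vertical axes, percent) by the number of other 16HBE14o- regions within 1 Mb (left) and of Calu3 sites within 1 Mb and over 500 bp away (right), for the 536 regions without a Calu3 counterpart (red) and the 1160 with one (blue). On the left the red curve lies to the right of the blue (medians 5 and 4); on the right it lies slightly to the left at low counts and meets the blue curve at high ones (medians 8 and 9).

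The nearest other 16HBE14o- region of any strength was at a median of 73.2 kb (95% interval 58.8 to 88.8) from regions without a counterpart and of 108 kb (95% interval 93.8 to 125.4) from those with one. For the weaker regions without a counterpart the median was 67.6 kb (95% interval 60.9 to 78.2). Another 16HBE14o- region lay within 10 kb of 112 of the 536 (20.9%, 95% interval 17.5 to 24.6) and of 191 of the 1160 (16.5%, 95% interval 14.4 to 18.7). None of these differences between the sets was tested, because regions that lie in groups are not independent and each line gave 1 pooled list.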

How the data were processed

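Per the labels, each list of BACH1 ChIP-seq peaks came from 2 replicates of a line through IDR. Coordinates are on hg19, which the submitters' processing notes name. No label names the aligner, the peak caller or a control library. The authors deposited, for the 16HBE14o- line, a peak signal, a browser score and a further score of unstated meaning. For Calu3 they deposited a fold enrichment per peak (a ratio, so read from the format) and a −log10 q. All are the authors' values and were used only within their own list, since the scales and widths of the lists differ.

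Overlapping rows among the 3415 of 16HBE14o- were merged (22 regions held several rows), each region taking the signal and summit of its strongest row, and compared with all Calu3 peaks. Shares carry Clopper-Pearson 95% intervals and medians the binomial interval of their order statistics. Named regions are the 20 strongest, those at the selection's edges, the groups with most regions, the chromosomes with extreme ratios and the 5 farthest from Calu3 summits; the score's lowest holder, further groups and the stretches were added after seeing values. The selection and these lists were chosen with earlier results of these data known. The planned sequence motifs and gene context needed an hg19 genome and were not run. Coordinates are 1-based, and read depth is unknown. Python 3.11.15, numpy 2.4.6, scipy 1.17.1, pandas 2.3.3 and matplotlib 3.10.9 were used, and the selection was tested on simulated data.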

Additional observations from a re-analysis of the deposited data

How the results depend on the processing

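The number of regions without a counterpart stayed within 1.5 times 536 under 6 of the 9 alternatives: 527 with summits over 1000 bp apart, 487 with over 5000 bp, 542 without a distance limit, 595 against Calu3 peaks with q under 0.05, 542 without merging rows and 536 (533 in common) ranked by the list's further score. It became 132 when a shorter list, the strongest 25% of regions, was taken, 1792 over the whole list, and 840 against the 3393 strongest Calu3 peaks. Ranking by the further score is no independent alternative. That score stood at its highest value in 205 of the 536 and fell broadly with signal in the others. Ties in it were broken by signal, so the 533 in common were largely fixed in advance. The share on chromosomes 11, 14 and 21 stayed within its interval under the 4 alternatives tried (19.8% to 22.7%); within rank steps of 424, chosen after seeing the data, it was 17.8% to 27.3%, the highest in ranks 1 to 424 (33 regions). The share on chromosomes 10, 12 and 22 ran from 5.30% to 6.53%. Both trios of chromosomes were picked by ratio in these same data. The 4 alternatives shared most or all of their regions with the 536. Small movement of these shares was thus largely built in and is not a test. Chromosome 20 held 15.9% in the strongest 25%. The share with another such region within 100 kb was 7.58% there, where fewer regions were counted, and the share was 15.5% within 50 kb and 50% within 500 kb. The median distance to a Calu3 summit became 77.0 kb with summits over 5000 bp apart and 80.9 kb against Calu3 peaks with q under 0.05, both of which remove near sites by construction. No paired analysis was possible because the replicates of a line share a single list; leaving one out was likewise not possible. Alternatives for sequence motifs and gene context were not run. Read depth and the way peaks were called in each line are unknown, and both limit every statement that a Calu3 site was not detected.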
